A study of Mus musculus with 4 samples.

Results

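The tricarboxylic acid cycle enzymes described here are encoded by 9 genes, Cs, Idh3a, Idh3b, Idh3g, Ogdh, Dlst, Suclg1, Fh1 and Mdh2, chosen by symbol among the 15500 genes of an expression table of libraries labelled liver. All 9 were listed, and none was left out by the limit on low values used below, a mean of at least 1 FPKM, which 10355 genes met. FPKM count fragments for each kilobase of a transcript, relative to all mapped fragments, so levels can be set side by side between genes. The table names no unit, and FPKM is inferred from the methods. The libraries came from male Kunming mice, bought at 5 weeks of age and fed chow for 1 week before the treatments of 28 days began. The Vehicle diet contained linoleic acid at 1.5% by weight, and in the CLA diet conjugated linoleic acid at 1.5% took its place. GW6471 mice had the linoleic acid diet and a daily intraperitoneal injection of GW6471, a PPARα antagonist, at 20 mg per kg of body weight. CLA+GW6471 mice had the CLA diet and injections of GW6471. Linoleic acid was thus part of the diet in both conditions without CLA, and which mice had vehicle injections is not given for each group. Groups of 6 mice were described, and the methods give zeitgeber time 8 for sampling at the end of the feeding experiment, but the table holds 1 library for each of the 4 conditions, and the sources used here do not say whether RNA of several mice was pooled.

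The cycle runs in the mitochondrial matrix, where it oxidizes the acetyl group of acetyl-CoA from pyruvate, fatty acids and amino acids to carbon dioxide and passes the electrons to NAD and ubiquinone for the respiratory chain. Citrate synthase (Cs) joins acetyl-CoA to oxaloacetate, and the NAD-dependent isocitrate dehydrogenase, built of the catalytic subunit Idh3a with Idh3b and Idh3g, makes 2-oxoglutarate. Ogdh and Dlst are the E1 and E2 components of the 2-oxoglutarate dehydrogenase complex, Suclg1 is the shared alpha subunit of the succinyl-CoA ligases, Fh1 is fumarase, and Mdh2 is the mitochondrial malate dehydrogenase that regenerates oxaloacetate. In the liver the cycle also supplies citrate for lipid synthesis and malate for gluconeogenesis.

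Promoter sequence is shown for genes on opposite sides of Vehicle in the CLA library, the 2 that were lower beyond counting error (Ogdh and Dlst) and the 2 most abundant of those that were higher (Mdh2 and Cs). The bases are the 250 upstream of a RefSeq start site in GRCm38.p6, 5′ to 3′ on the gene's strand, and capitals mark motif matches.
Mdh2, chr5:135778399-135778648, plus strand: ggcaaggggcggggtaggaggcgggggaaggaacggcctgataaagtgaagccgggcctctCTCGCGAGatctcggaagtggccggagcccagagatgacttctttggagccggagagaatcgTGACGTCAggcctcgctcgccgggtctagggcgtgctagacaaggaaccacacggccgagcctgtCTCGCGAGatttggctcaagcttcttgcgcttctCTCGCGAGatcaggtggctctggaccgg
Cs, chr10:128337477-128337726, plus strand: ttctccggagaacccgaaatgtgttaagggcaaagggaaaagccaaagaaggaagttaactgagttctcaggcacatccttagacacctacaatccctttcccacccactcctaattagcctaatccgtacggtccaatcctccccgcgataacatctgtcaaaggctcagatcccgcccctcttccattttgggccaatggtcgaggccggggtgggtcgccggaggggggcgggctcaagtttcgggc
Ogdh, most upstream of its listed starts, chr11:6291347-6291596, plus strand: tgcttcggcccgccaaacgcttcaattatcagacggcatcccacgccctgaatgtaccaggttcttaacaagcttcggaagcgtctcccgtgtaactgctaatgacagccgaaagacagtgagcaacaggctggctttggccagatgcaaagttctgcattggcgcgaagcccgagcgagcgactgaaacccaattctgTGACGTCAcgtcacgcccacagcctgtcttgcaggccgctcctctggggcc
Dlst, chr12:85110583-85110832, plus strand: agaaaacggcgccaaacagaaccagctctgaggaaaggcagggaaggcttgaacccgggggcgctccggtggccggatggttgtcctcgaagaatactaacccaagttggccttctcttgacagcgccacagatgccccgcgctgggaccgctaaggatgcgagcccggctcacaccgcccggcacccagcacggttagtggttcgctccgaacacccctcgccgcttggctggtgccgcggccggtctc
Start sites were found for 8 of the 9 genes, all but Idh3a, in 13 windows. The 5 motifs searched, on both strands, were TCAAGGTCA (bound by estrogen-related receptors), GCATGCGC (the core of the NRF1 element), DR1 (the direct repeat of AGGTCA with 1 base between, bound by PPAR-RXR), TGACGTCA (the cyclic AMP response element) and the palindrome CTCGCGAG. The last 2 were added after the sequences had been read. TCAAGGTCA and DR1 had no match in any of these windows, where 0.387% and 0.0335% of all 32851 promoter windows hold one. GCATGCGC, held by 2.26% of all windows, matched on the minus strand in the windows of the 2 most downstream starts of Ogdh, at the same genomic site. TGACGTCA occurred in Mdh2, 127 to 120 bases upstream of the start, and in Ogdh, 51 to 44 bases upstream of the start shown, compared to 1.55% of all windows. The Mdh2 window held CTCGCGAG 3 times, at 189 to 182, 62 to 55 and 28 to 21 bases upstream. This palindrome was in 0.761% of all windows, and 2 windows in all had 3 or more copies. The windows of the other 6 genes held none of the 5 motifs. The GC content of the windows shown was 63.2% in Mdh2, 55.2% in Cs, 57.2% in Ogdh and 64.8% in Dlst, and the median of all windows was 52.4%.

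In mm9, the assembly the authors mapped to, the genes lie on 9 different chromosomes. The oxoglutarate dehydrogenase genes are Ogdh at chr11:6191636-6256645, with 24 exons in its longest coding transcript, and Dlst at chr12:86451783-86475041, with 15. Cs lies at chr10:127774888-127799535 and Mdh2 at chr5:136254350-136266268, with 11 and 9 exons. Idh3a is at chr9:54434288-54452468, Idh3b at chr2:130105045-130110283 and Idh3g at chrX:71024302-71032236. Suclg1 is at chr6:73198376-73226905 and Fh1 at chr1:177530505-177555766. A search of each longest coding transcript against mm9 at 95% identity found a copy outside the gene for Cs only, a match of 268 nt that is 9.4% of its transcript, so a small part of the Cs reads may be shared.

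All 9 transcripts were well above the middle of the table. The lowest, Idh3a, had a mean of 31.4 FPKM over the 4 libraries, above 82.0% of the listed genes, and the highest, Mdh2, had 397 FPKM, above 98.9%. Together they made up 0.209% of the FPKM sum in Vehicle, 0.218% in CLA, 0.209% in GW6471 and 0.205% with both treatments. The depth, estimated from the step size of low values, was 18870000, 18800000, 19080000 and 19280000 reads in the same order, which puts between 1307 and 12931 reads behind each value of these genes. The markers went against the tissue label in part. Of 15 hepatocyte markers 14 were listed and 9 had a mean under 1 FPKM, among them Cps1 (0.018), Cyp2e1 (0.065), Ttr (0.030) and Apoa1 (0.863), which hepatocytes express strongly. Alb, with 620.17 to 1321.55 FPKM, Trf, Fgb, Hnf4a and Apob were above this limit. The summed level of the list ran from 932 FPKM in CLA+GW6471 and 1006 in Vehicle to 1524 in GW6471 and 1866 in CLA. Macrophage and blood markers (4 of 7 listed) summed to between 25.9 FPKM in Vehicle and 38.6 in CLA. Most of this was Cd68 (23.43 and 35.64 FPKM). Of the 4, 2 had a mean under 1 FPKM, Csf1r (0.745) and Ptprc (0.0075). Of 8 stellate, fibroblast and endothelial markers, 7 had a mean under 1 FPKM and Dcn, the exception, had 1148 to 1506 FPKM. The bile duct and other epithelial markers, with 6 of 6 listed, summed to between 71.2 FPKM in CLA and 88.6 in Vehicle, with the low CLA value due to Sox9 (54.74 FPKM in Vehicle and 34.72 in CLA), while Epcam and Krt5 were higher in CLA. These sums differ between the same libraries as the cycle genes do, and their part in the results was not tested. In bulk RNA, fewer cells of a type and less RNA per cell cannot be told apart.

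**Figure D1:**
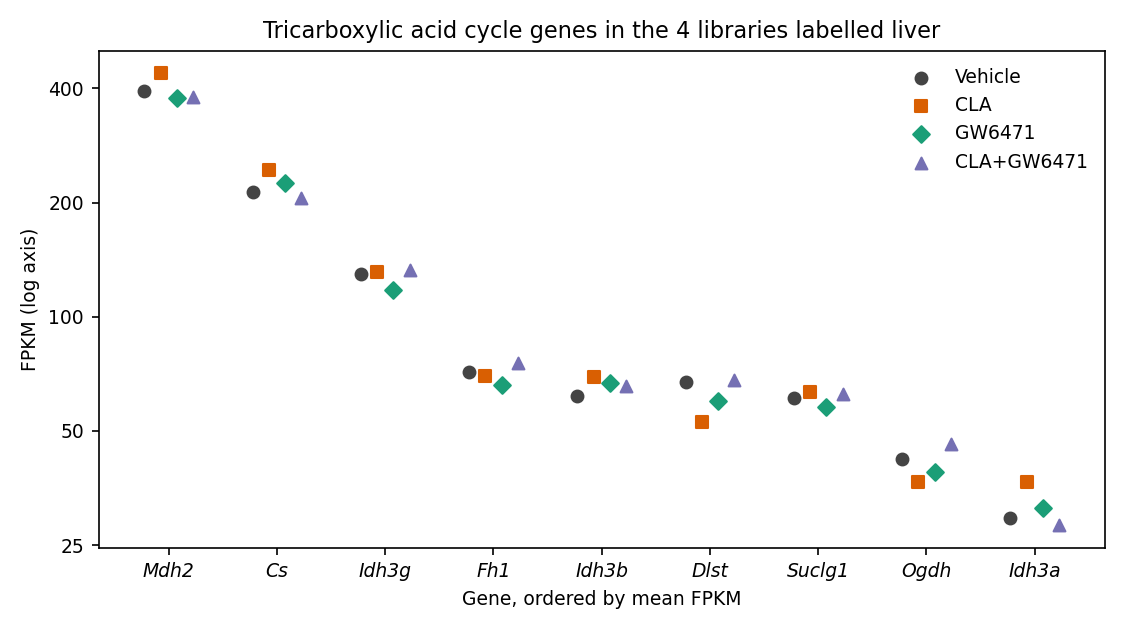
FPKM of each gene (log axis) in the Vehicle, CLA, GW6471 and CLA+GW6471 libraries, 1 point per library, with genes ordered by their mean. Mdh2, Cs and Idh3g stand clear of each other and of the rest in all 4 libraries, Fh1, Idh3b, Dlst and Suclg1 overlap between 52.9 and 75.6 FPKM, and the CLA point is the highest for Idh3a and the lowest for Dlst and Ogdh.

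The levels spanned more between the genes than between the libraries. Mdh2, Cs and Idh3g, in this order, had ranges over the 4 libraries that did not overlap, with means of 397, 222 and 128 FPKM. Below them, Fh1 (70.7 FPKM), Idh3b (65.9), Dlst (62.0) and Suclg1 (61.3) overlapped with their neighbours in the order. Ogdh, with a mean of 41.0 FPKM, was separate from Suclg1 but overlapped with Idh3a at 31.4 FPKM, since both stood near 37 FPKM in the CLA library (36.6 and 36.8).

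The range of each gene over the libraries was within 1.5-fold. The highest value exceeded the lowest by 1.09-fold for Suclg1, which had the smallest range, and by 1.30-fold for Idh3a, which had the largest. On the log2 scale, with 0.1 added to each FPKM, this spread had a median of 0.22 over the 9 genes and ran from 0.13 to 0.38. Over all 10355 genes with a mean of at least 1 FPKM the median spread was 0.35, and over the 2622 genes whose mean lay within the range of the 9 it was 0.30. The spread of Suclg1 was larger than that of 7.10% of the 10355 genes, that of Ogdh than 47.2%, that of Dlst than 52.4% and that of Idh3a than 55.5%, so the genes were not all steadier than the middle of the table. Each condition has a single library and hence no error between replicates, so no difference between conditions was tested.

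Each log2 ratio carries a 95% interval (exact Clopper-Pearson) for the sampling of reads at the estimated depth. The interval leaves out all variation between animals and library preparations. A gene was called different beyond counting when this interval left out 0, and called changed when the ratio was at least 1.5-fold in either direction.

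The first comparison asked how the cycle genes stood under dietary CLA. Compared to Vehicle, none of the 9 genes passed 1.5-fold in CLA, where 12.3% of all genes did. Beyond counting, 4 genes were higher (Mdh2, Cs, Idh3b and Idh3a) and 2 were lower (Dlst and Ogdh), while 32.1% of all genes were higher and 33.5% lower in this sense. The median log2 ratio was 0.05 over the 9 genes and -0.01 over all genes. The entry of the cycle and its last step stood on the higher side, and the oxoglutarate dehydrogenase components on the lower.

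Idh3a, the catalytic subunit of NAD-dependent isocitrate dehydrogenase, had 29.49 FPKM in Vehicle, 36.77 in CLA, 31.26 in GW6471 and 28.21 with both treatments. CLA was the highest and CLA+GW6471 the lowest, with a log2 ratio of CLA to Vehicle of 0.32 (95% counting interval 0.21 to 0.42). Idh3b, which pairs with the catalytic subunit, had 61.66 FPKM in Vehicle, 69.26 in CLA, 67.06 in GW6471 and 65.51 with both treatments, and was lowest in Vehicle. Its log2 ratio of CLA to Vehicle was 0.17 (0.08 to 0.26). Idh3g, a regulatory subunit, had 129.88, 131.23, 117.62 and 132.60 FPKM in the same order. GW6471 alone stood apart on the low side for Idh3g, and CLA and Vehicle lay within counting error of each other, with a log2 ratio of 0.01 (-0.06 to 0.09) that turned to -0.02 with all FPKM sums made equal. The level of Idh3a relative to Idh3g was 0.227 in Vehicle, 0.280 in CLA, 0.266 in GW6471 and 0.213 with both treatments. This range of 1.32-fold between single libraries was not tested. The ratio of Idh3a to Idh3b ran from 0.431 in CLA+GW6471 to 0.531 in CLA.

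Cs, the enzyme that starts the cycle, had 212.68 FPKM in Vehicle, 243.22 in CLA, 225.43 in GW6471 and 205.98 with both treatments. Its libraries were ordered as for Idh3a, and the log2 ratio of CLA to Vehicle was 0.19 (0.16 to 0.23). Mdh2, which closes the cycle and also serves the malate-aspartate shuttle, had 394.05 FPKM in Vehicle, 438.37 in CLA, 376.46 in GW6471 and 379.21 with both treatments. The CLA library stood above the other 3, and the log2 ratio to Vehicle was 0.15 (0.12 to 0.19). The ratio of Cs to Mdh2, 2 consecutive steps, stayed between 0.540 in Vehicle and 0.599 in GW6471.

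Dlst, the E2 core of the oxoglutarate dehydrogenase complex, had 67.39 FPKM in Vehicle, 52.90 in CLA, 59.83 in GW6471 and 68.06 with both treatments. CLA was the lowest library, 21.5% below Vehicle, with a log2 ratio of -0.35 (-0.42 to -0.28). Ogdh, the E1 component, had 42.11, 36.57, 39.06 and 46.16 FPKM in the same order, and its log2 ratio of CLA to Vehicle was -0.20 (-0.28 to -0.13). Both components were lowest in CLA and, as deposited, highest in CLA+GW6471. For Dlst, CLA+GW6471 stood only 0.994% above Vehicle. With equal FPKM sums its log2 ratio was -0.379 in CLA to Vehicle and 0.370 in CLA+GW6471 to CLA, so Vehicle was then the highest. The ratio of Ogdh to Dlst was 0.625 in Vehicle, 0.691 in CLA, 0.653 in GW6471 and 0.678 with both treatments, a range of 1.11-fold. By contrast, the ratio of Idh3a to Dlst went from 0.438 in Vehicle to 0.695 in CLA, and from 0.522 in GW6471 to 0.414 in CLA+GW6471.

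Like Idh3g, Suclg1 and Fh1 lay close to Vehicle in the CLA library. Suclg1 had 61.22 FPKM in Vehicle, 63.40 in CLA, 57.92 in GW6471 and 62.59 with both treatments, and Fh1 had 71.43, 69.90, 65.95 and 75.55. The log2 ratios of CLA to Vehicle were 0.05 (-0.04 to 0.15) for Suclg1 and -0.03 (-0.10 to 0.04) for Fh1, both within counting error. GW6471 was the lowest library of both.

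**Figure D2:**
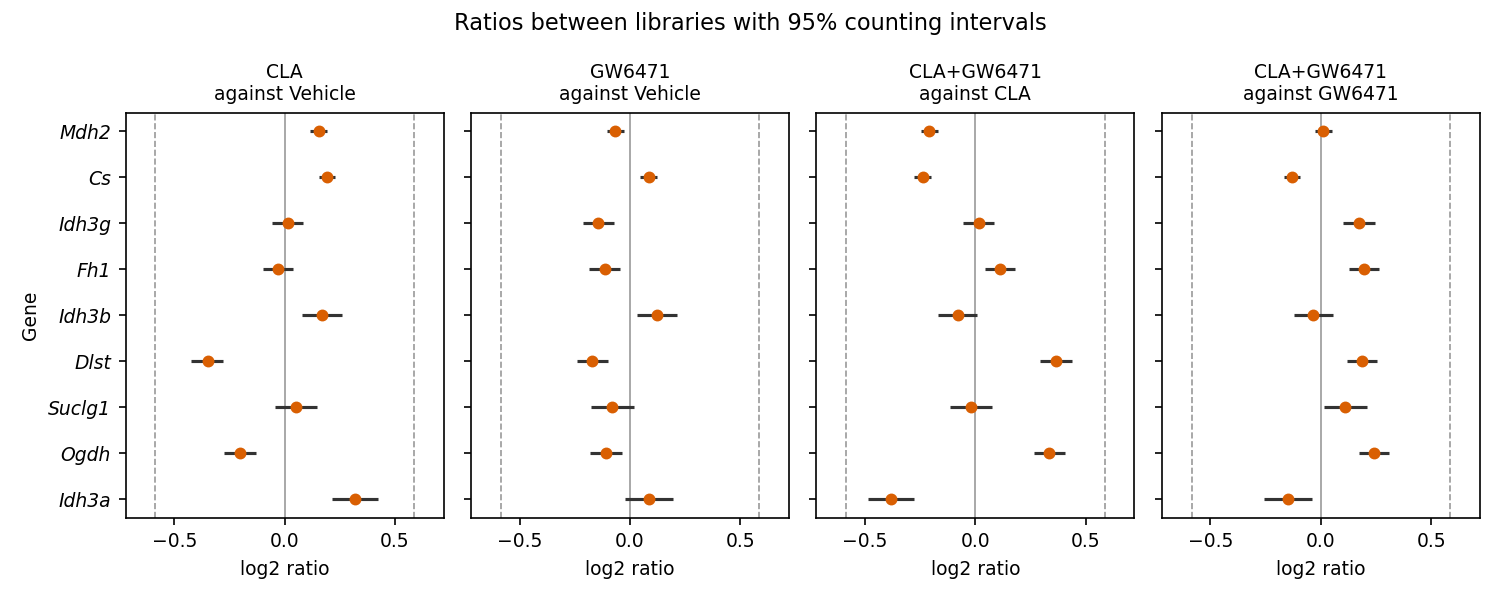
Log2 ratios of FPKM + 0.1 (points) with 95% counting intervals (bars) for the 9 genes in 4 comparisons. The dashed lines mark 1.5-fold, which no point reached, and Dlst and Ogdh lie below 0 in CLA against Vehicle and above 0 in both comparisons of CLA+GW6471.

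The second asked the same of the antagonist on the control diet. In GW6471 compared to Vehicle none of the 9 genes passed 1.5-fold, as 5.38% of all genes did. Beyond counting, 2 genes were higher (Cs and Idh3b) and 5 were lower (Mdh2, Idh3g, Fh1, Dlst and Ogdh), against 27.6% and 27.4% of all genes. The median log2 ratio was -0.08, and 0.00 over all genes (-0.0041). Dlst had a log2 ratio of -0.17 (-0.24 to -0.10) and Idh3g one of -0.14 (-0.22 to -0.07), the largest as deposited, while Idh3b was the farthest from 0, at 0.16, with equal FPKM sums. The GW6471 library had the smallest FPKM sum, and with all libraries scaled to the same sum 3 genes were higher and 3 lower beyond counting, since Mdh2 (-0.02) and Ogdh (-0.07) came within counting error and Idh3a (0.13) left it. This scaling moves all genes of the comparison by nearly the same amount, 0.043 on the log2 scale. The median of the 9 was then -0.04, while the shares and median of all genes above are as deposited.

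With the antagonist added to the CLA diet, the genes were set against CLA and against GW6471. In CLA+GW6471 compared to CLA, none passed 1.5-fold, where 16.0% of all genes did. Beyond counting, 3 were higher (Fh1, Dlst and Ogdh) and 3 lower (Mdh2, Cs and Idh3a), and for all genes the shares were 35.0% and 33.8%. The log2 ratios were 0.36 (0.29 to 0.44) for Dlst, 0.34 (0.26 to 0.41) for Ogdh, -0.38 (-0.49 to -0.28) for Idh3a and -0.24 (-0.28 to -0.20) for Cs. The median was -0.02, and 0.01 over all genes. Since CLA is the reference here and was set against Vehicle before, a value that is extreme in that library enters both comparisons.

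In CLA+GW6471 compared to GW6471, which shares no library with CLA against Vehicle, none of the 9 genes passed 1.5-fold and 6.69% of all genes did. Beyond counting, 5 were higher (Idh3g, Fh1, Dlst, Suclg1 and Ogdh) and 2 lower (Cs and Idh3a), with 29.1% of all genes higher and 30.3% lower. The largest log2 ratio was that of Ogdh, 0.24 (0.17 to 0.31), and the lowest that of Idh3a, -0.15 (-0.26 to -0.04). The median was 0.11, against 0.0041 over all genes, both as deposited. Equal FPKM sums move all genes of this comparison by nearly the same amount, -0.066 on the log2 scale. The median of the 9 was then 0.05, which is not to be set against the unscaled 0.0041. Mdh2 stood at 0.01 (-0.03 to 0.05), which turned to -0.06 with the libraries scaled to the same sum. At that scaling 4 genes were higher and 4 lower beyond counting, with Suclg1 (0.05) within counting error and Idh3b (-0.10) and Mdh2 on the lower side. The shares of all genes above, 29.1% and 30.3%, are for the values as deposited.

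The direction of the CLA ratio without and with GW6471 was therefore opposite for Cs, Dlst, Ogdh and Idh3a, the 4 genes that differed beyond counting in both. With equal FPKM sums Mdh2 and Idh3b joined them, but the shares of all genes that follow are for the values as deposited. Among all 9762 genes with a known length and a mean of at least 1 FPKM, 4449 differed beyond counting in both comparisons and 88.0% of these were opposite, so the 4 genes went with most of the genes that differed in both. Opposite genes were 40.1% of the 9762. As for the order of the libraries as deposited, Cs and Idh3a ran CLA, GW6471, Vehicle, CLA+GW6471 from high to low. This order was that of 14.4% of 10197 genes without ties. Dlst and Ogdh ran in exactly the reverse, which 13.9% had. These were the 2 most frequent orders. For Dlst, 0.994% separated CLA+GW6471 from Vehicle, and with equal FPKM sums Vehicle was the higher. The summed hepatocyte markers and the summed stellate, fibroblast and endothelial markers, nearly all Dcn, both ran in the order of Cs and Idh3a. Sox9, a bile duct marker, ran in the order of Dlst and Ogdh, with 54.74 FPKM in Vehicle, 34.72 in CLA, 48.67 in GW6471 and 57.05 with both treatments. The list it comes from had no common direction, since in CLA against Vehicle Epcam (log2 ratio 0.33) and Krt5 (0.51) were higher beyond counting and Sox9 lower. The part of these markers in the orders was not tested. Hnf4a, a hepatocyte transcription factor, had another order, with 54.53 FPKM in Vehicle, 47.31 in CLA, 47.23 in GW6471 and 51.84 with both treatments. Between CLA+GW6471 and Vehicle, the cycle genes differed by 0.994% (Dlst) to 9.62% (Ogdh) of the Vehicle level.

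**Figure D3:**
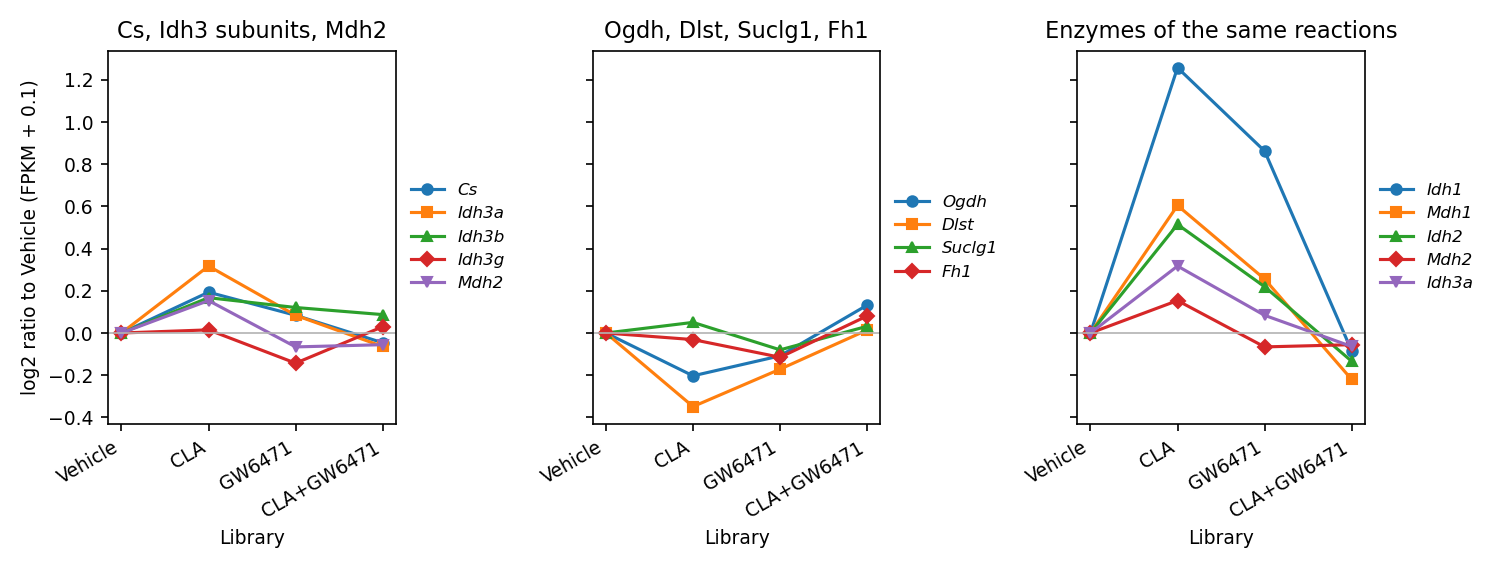
Log2 ratio to Vehicle of FPKM + 0.1 in each library, with 1 line per gene joining its points and Vehicle at 0 by construction. The left panel holds Cs, Idh3a, Idh3b, Idh3g and Mdh2, the middle panel Ogdh, Dlst, Suclg1 and Fh1, and the right panel enzymes of the same reactions, among which Idh1 reaches 1.26 in CLA while Mdh2 stays at 0.15.

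The other enzymes and subunits of the cycle, with the cytosolic forms of its enzymes, made a list of 13 genes, of which 12 were listed. In CLA compared to Vehicle, 9 were higher and 1 lower beyond counting, beside 32.1% and 33.5% of all genes, and the median log2 ratio was 0.23. Past 1.5-fold were 2 of the 12, both upwards, beside 12.3% of all genes in either direction. The 2 were cytosolic. Idh1, the cytosolic and peroxisomal NADP-dependent isocitrate dehydrogenase, had 43.75 FPKM in Vehicle, 104.75 in CLA, 79.63 in GW6471 and 41.26 with both treatments. Its log2 ratio of CLA to Vehicle was 1.26 (1.18 to 1.34), and that of CLA+GW6471 to CLA, which shares the CLA library, was -1.34 (-1.42 to -1.27). Mdh1, the cytosolic malate dehydrogenase, had 51.10, 77.75, 61.03 and 43.85 FPKM in the same order, with a log2 ratio of CLA to Vehicle of 0.60 (0.52 to 0.69). Relative to its mitochondrial counterpart, Mdh1 stood at 0.130 of Mdh2 in Vehicle, 0.177 in CLA, 0.162 in GW6471 and 0.116 with both treatments. Idh1 relative to Idh3a was 1.48 in Vehicle, 2.85 in CLA, 2.55 in GW6471 and 1.46 with both treatments.

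Within the mitochondrion, Idh2, the NADP-dependent isocitrate dehydrogenase, had 77.86 FPKM in Vehicle, 111.28 in CLA, 90.67 in GW6471 and 70.95 with both treatments, 0.51 (0.44 to 0.59) as the log2 ratio of CLA to Vehicle. Sucla2, the ATP-forming beta subunit that partners Suclg1, had 11.47, 15.41, 12.46 and 9.59 FPKM. The alternative partner Suclg2, the GTP-forming beta subunit, had 30.21, 29.01, 26.59 and 26.29 FPKM. The level of Suclg1 relative to Sucla2 accordingly ran from 4.11 in CLA to 6.53 in CLA+GW6471, and relative to Suclg2 from 2.03 to 2.38. Dld, the E3 component that the oxoglutarate and pyruvate dehydrogenases share, had 44.68 FPKM in Vehicle, 37.79 in CLA, 46.40 in GW6471 and 41.77 with both treatments. Its log2 ratio of CLA to Vehicle was -0.24 (-0.34 to -0.14), so all 3 components of the oxoglutarate dehydrogenase were lower in CLA than in Vehicle. Between CLA+GW6471 and GW6471, Dld lay on the other side from Ogdh and Dlst, with -0.15. The succinate dehydrogenase subunits had log2 ratios of CLA to Vehicle of 0.09 (Sdha), 0.27 (Sdhb), 0.41 (Sdhc) and 0.05 (Sdhd).

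In the other comparisons the list of 12 had medians of 0.05 in GW6471 against Vehicle, with 1 gene past 1.5-fold upwards, -0.27 in CLA+GW6471 against CLA, with 4 past it downwards, and -0.06 in CLA+GW6471 against GW6471, with 1 downwards. The shares of all genes past 1.5-fold there were 5.38%, 16.0% and 6.69%. The median spread over the 4 libraries was 0.35 for these genes. Pyruvate entry had 6 of 7 genes at a mean of at least 1 FPKM, all but Pcx (pyruvate carboxylase), which had a mean of 0.89 FPKM. The list had a median log2 ratio of CLA to Vehicle of 0.04 and none past 1.5-fold, beside 12.3% of all genes. Its pyruvate dehydrogenase subunits differed in sign. Pdhb, the E1 beta subunit, had 86.04 FPKM in Vehicle but 68.28 in CLA (log2 ratio -0.33), while Pdha1 (E1 alpha) had 0.28, Dlat (E2) 0.34 and Pdhx (the E3-binding protein) 0.48. Of the pyruvate carrier subunits, Mpc1 had -0.25 and Mpc2 -0.19. Mpc2 was the single gene of this list past 1.5-fold in CLA+GW6471 against GW6471, with 0.65, beside 6.69% of all genes, and the list's median there was -0.05.

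**Figure D4:**
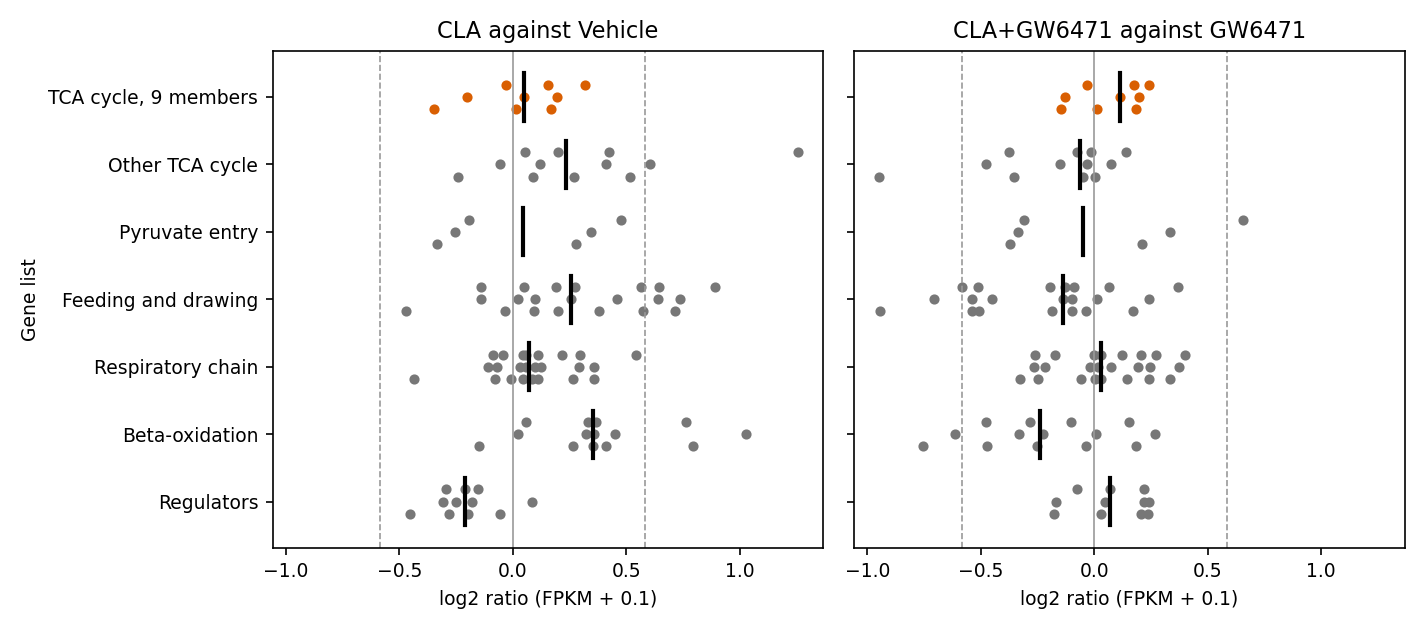
Log2 ratios of FPKM + 0.1 for the genes of 7 lists with a mean of at least 1 FPKM, in CLA against Vehicle (left) and CLA+GW6471 against GW6471 (right), with 1 point per gene and a bar at each median. The 9 cycle genes (orange) lie inside the dashed 1.5-fold lines in both panels, while beta-oxidation has its median at 0.35 on the left and -0.24 on the right.

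Reactions that feed the cycle or draw from it had some larger ratios than the 9 genes. Of 21 such genes at a mean of at least 1 FPKM, 5 passed 1.5-fold upwards and none downwards in CLA compared to Vehicle, where 12.3% of all genes passed in either direction, and the median log2 ratio was 0.26. Slc25a1, the carrier that exports citrate from the mitochondrion, had the largest ratio, 0.89 (0.80 to 0.99), from 43.45 to 80.75 FPKM. Pck2, the mitochondrial phosphoenolpyruvate carboxykinase, had 0.74 and Pccb, a subunit of propionyl-CoA carboxylase, 0.72 at a mean of only 1.56 FPKM. In CLA+GW6471 compared to GW6471 the median was -0.14 with 2 genes past 1.5-fold downwards, Pck2 (-0.94) and Pccb (-0.71), a share near the 6.69% of all genes past it. The next in size was Gpt2, the mitochondrial alanine aminotransferase, with -0.58.

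The respiratory chain and ATP synthase, which take up the electrons of the cycle, gave 24 genes. None of them passed 1.5-fold in CLA compared to Vehicle, beside 12.3% of all genes, the median log2 ratio was 0.07, and the median spread over the libraries was 0.27. The largest ratios were 0.54 for Ndufs3 (complex I), -0.43 for Cycs (cytochrome c) and 0.36 for Atp5c1 (ATP synthase gamma). In CLA+GW6471 against CLA, 2 of the 24 passed it downwards, where 16.0% of all genes passed in either direction. Between CLA+GW6471 and GW6471 the median was 0.03, with 0.40 for Atp5o, 0.37 for Cycs and 0.33 for Cox5b. Mitochondrial beta-oxidation, which feeds acetyl-CoA into Cs, had a median of 0.35 over 14 genes in CLA compared to Vehicle, with 11 higher and 1 lower beyond counting, beside 32.1% and 33.5% of all genes. Past 1.5-fold were 3 of them, beside 12.3% of all genes, Hadh (1.03), Acaa2 (0.79) and Acads (0.77). In GW6471 compared to Vehicle the list also had a median of 0.35, with 4 genes past 1.5-fold upwards beside 5.38% of all genes, while the 9 cycle genes had a median of -0.08. Against GW6471, CLA+GW6471 gave a median of -0.24, with Hadh at -0.76, Acaa2 at -0.61 and Decr1 at -0.48. The median spread of this list over the libraries was 0.59, compared to 0.22 for the cycle genes. No difference between lists was tested.

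Among 11 regulators of mitochondrial gene expression, 7 were lower and none higher in CLA than in Vehicle beyond counting, beside 33.5% and 32.1% of all genes. None passed 1.5-fold, as 12.3% of all genes did, and the median log2 ratio was -0.21. Nrf1, the activator of many nuclear genes for mitochondrial proteins, had 20.99, 15.33, 16.81 and 19.57 FPKM in Vehicle, CLA, GW6471 and CLA+GW6471, with -0.45 (-0.57 to -0.34) as the log2 ratio of CLA to Vehicle. Tfb2m, a factor of mitochondrial transcription, had -0.31 and Ppargc1a, the coactivator PGC-1α, -0.29 at a mean near 1.5 FPKM. For CLA+GW6471 against GW6471 the median was 0.07, and the largest ratios were 0.24 for Sirt3, 0.24 for Ppargc1a and 0.22 for Polrmt, of which those of Sirt3 and Ppargc1a were within counting error. Nrf1 had 0.22 (0.10 to 0.33).

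The mean profile of the 9 genes, each centred on its own mean over the 4 libraries, was nearly flat, at 0.00 in Vehicle (-0.0036), 0.03 in CLA, -0.05 in GW6471 and 0.02 with both treatments on the log2 scale. Of 8173 other genes with a mean of at least 5 FPKM, those nearest to it by Euclidean distance over the 4 libraries were Rab5c (distance 0.0080), Sap30 (0.014), Cox18 (0.016), Stx2 (0.017) and Mbd3 (0.019). Rab5c had 106.47, 109.86, 103.46 and 108.76 FPKM in Vehicle, CLA, GW6471 and CLA+GW6471. Since the members of the mean profile differed in direction, closeness to it describes a steady level only.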

How the data were processed

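The libraries labelled liver, 1 for each of the conditions Vehicle, CLA, GW6471 and CLA+GW6471, were assigned from their treatment labels. The values the authors deposited were taken as FPKM, because the methods name Cufflinks for quantification after alignment to mm9 by BWA and Bowtie, while the table states no unit. Its identifier columns are named as in RSEM output, so the quantification tool and the unit are not certain. Tool versions are not given in the sources used here. No counts are given, so no count model was fitted, and no test between conditions was possible with 1 library each.

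A pseudocount of 0.1 FPKM preceded every log2. Depth was estimated from the step between FPKM times length values of 0.02 to 0.5 (in kb) of genes under 1000 nt with a single transcript, and the counting intervals use the longest coding transcript in GENCODE vM1. They are approximate. The steps were tested on counts simulated with the same transcript lengths, which cannot show how well those lengths fit the deposited values. Copies were sought with blastn, and promoters came from RefSeq (GRCm38.p6). Scripts ran under Python 3.11.15 with pandas 2.3.3 and numpy 2.4.6, intervals came from scipy 1.17.1 and plots from matplotlib 3.10.9.

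The 9 genes, the gene lists and the rules were chosen with earlier results of these data known. The lists were other cycle genes, pyruvate entry, feeding and drawing reactions, respiratory chain, beta-oxidation, regulators and 4 lists of cell type markers. Named from the longer lists are the 3 genes with the largest absolute log2 ratio in CLA against Vehicle and the 3 in CLA+GW6471 against GW6471, and the 5 genes nearest to the mean profile. Alternatives were other pseudocounts, scalings, limits on low values and fold limits. Protein identity between the Idh3 subunits was not analysed here.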

Additional observations from a re-analysis of the deposited data

Results flagged for a closer look

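For 4 genes the CLA diet went with opposite directions without and with GW6471, each beyond counting error. The log2 ratios in CLA against Vehicle and in CLA+GW6471 against GW6471 were 0.19 and -0.13 for Cs, 0.32 and -0.15 for Idh3a, -0.35 and 0.19 for Dlst, and -0.20 and 0.24 for Ogdh. With equal FPKM sums Mdh2 (-0.06) and Idh3b (-0.10) were also lower beyond counting in CLA+GW6471 against GW6471, while both stayed higher in CLA against Vehicle. The difference between the ratios was not tested, as each condition has 1 library. Of the 9762 genes with a mean of at least 1 FPKM and a known length, 40.1% showed such an opposite direction beyond counting in both comparisons. The 4 genes are 44.4% of the 9, near that share. Among all genes beyond counting in both, 88.0% were opposite. These shares are for the values as deposited and not for equal FPKM sums.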

How the results depend on the processing

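No paired analysis was possible because each condition has 1 library, which also leaves no replicate to omit. Of 144 log2 ratios of single members under a pseudocount of 0.01 or 1 or another scaling of the libraries, 140 stayed within their counting interval and the other 4, of Cs and Mdh2 in the 2 comparisons that involve the GW6471 library, moved with scaling to the same FPKM sum. All 16 medians over the members stayed within the counting interval of their middle gene, which is an interval for 1 gene and not for a median. With equal FPKM sums these medians ran from -0.04 to 0.05, compared to -0.08 to 0.11 as deposited. That scaling moves all genes of a comparison by nearly the same amount. At a lower limit, an absolute log2 ratio of 0.322, 1 member passed in CLA against Vehicle (Dlst, with Idh3a just under at 0.317), 3 passed in CLA+GW6471 against CLA and none in the other comparisons, with 35.4%, 40.6%, 21.4% (GW6471 against Vehicle) and 26.4% (CLA+GW6471 against GW6471) of all genes. At 2-fold no member passed in any comparison, and the shares of all genes were 2.53% in CLA against Vehicle, 0.869% in GW6471 against Vehicle, 3.93% in CLA+GW6471 against CLA and 1.16% in CLA+GW6471 against GW6471. The share of all genes past 1.5-fold in GW6471 against Vehicle was 2.96% with a pseudocount of 1, 10% without a limit on low values and 3.26% at a mean of at least 5 FPKM. In CLA+GW6471 against GW6471 it was 4.12%, 11.2% and 4.37% under the same settings. Scaling by median of ratios changed no member's side of its counting interval. The count of members beyond counting under each scaling was added after the data were seen. Intervals cover counting error only, and the depth behind them is an estimate.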
